A study of Homo sapiens with 12 samples.

Results

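Androgen treatment of MDA-MB-453 cells lowered INSIG2 and raised MYLIP by edgeR's test among 29 genes of sterol synthesis, uptake and control, and no synthesis enzyme passed the test. The genes were taken by symbol from a list ordered by pathway step, and all 29 were found among the 60670 genes of the count table. They comprised 7 enzymes of the mevalonate steps, 3 of the squalene steps, 8 of the late sterol steps, 5 genes of sterol uptake and handling, and 6 genes of sterol sensing and control. MDA-MB-453 is an established human breast cancer cell line used as a model of androgen-responsive luminal tumours. The tested libraries came from cells given 10 nM dihydrotestosterone (DHT), a potent androgen, for 6 h, and the others from cells given ethanol vehicle for the same time. All cells had first spent 72 h in DMEM rich in glucose and fetal bovine serum, and serum brings lipoprotein sterol and serum steroids of its own into both groups. Each group had 6 libraries from consecutive passages of the same line, so p-values measure the spread between passages of 1 line.

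Cells keep their sterol level steady through a feedback loop at the endoplasmic reticulum. SCAP carries the transcription factor precursor SREBP-2, encoded by SREBF2, to the Golgi for cleavage, and the freed factor switches on genes of cholesterol synthesis and of lipoprotein uptake. When sterols are plentiful, INSIG1 and INSIG2 hold SCAP back and also help to degrade the reductase that commits carbon to the pathway. A second arm senses oxysterols through the liver X receptors NR1H2 and NR1H3, which switch on genes of sterol efflux and MYLIP, the ubiquitin ligase that sends lipoprotein receptors to degradation. Androgens are known to raise lipid synthesis genes in human prostate cancer lines.

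The 250 bases before the start were read from RefSeq (GRCh38.p14) for the members that passed the test. The same stretch was read for the single member, of 26 with a promoter entry, that held an exact match to TCACNCCAC. This is a spelling of the sterol regulatory element, the motif bound by SREBP, and other spellings were not searched. INSIG2 and MYLIP are shown because they carry the change, and SREBF2 because it encodes the factor of the feedback loop and holds that element. Capitals mark the element (TCACNCCAC) and the box of its usual partner factor NF-Y (CCAAT, written ATTGG where it lies on the other strand). The windows were INSIG2 at chr2:118088221-118088470, MYLIP at chr6:16128836-16129085 and SREBF2 at chr22:41832855-41833104, all on the plus strand. A later INSIG2 start in the table also had a window with none of the motifs searched.
INSIG2: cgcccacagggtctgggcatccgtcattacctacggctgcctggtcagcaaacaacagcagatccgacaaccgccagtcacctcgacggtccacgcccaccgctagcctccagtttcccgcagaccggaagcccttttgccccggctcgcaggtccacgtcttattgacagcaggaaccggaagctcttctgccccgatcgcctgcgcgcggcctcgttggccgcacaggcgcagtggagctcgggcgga
MYLIP: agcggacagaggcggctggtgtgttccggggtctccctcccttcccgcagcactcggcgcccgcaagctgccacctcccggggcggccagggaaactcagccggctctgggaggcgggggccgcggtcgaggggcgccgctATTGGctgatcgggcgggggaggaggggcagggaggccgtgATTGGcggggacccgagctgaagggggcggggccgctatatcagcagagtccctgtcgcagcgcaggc
SREBF2: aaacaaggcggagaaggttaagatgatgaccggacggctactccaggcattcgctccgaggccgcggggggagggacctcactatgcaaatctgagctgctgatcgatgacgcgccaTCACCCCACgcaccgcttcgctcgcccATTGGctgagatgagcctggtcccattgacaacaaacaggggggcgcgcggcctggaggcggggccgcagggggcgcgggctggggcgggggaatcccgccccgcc

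The SREBF2 window held its element 133 bases before the start and an NF-Y box 106 bases before it. MYLIP had NF-Y boxes 109 and 68 bases before its start, and the INSIG2 window had no match to any motif searched. Among the members, 26 of 29 had an entry in the promoter table, with 36 windows. On either strand, an exact match to the sterol regulatory element as spelled above was in 1 of these 36 windows (2.78%), against 0.881% of all 34943 windows. The other windows may hold the element in spellings that were not searched. The NF-Y box was in 22 of the 36 (61.1%), against 32% of all windows. The spaced androgen receptor motif ACANNNTGT was in 3 (8.33%), against 4.62% of all windows, and these were windows of CYP51A1, MSMO1 and DHCR7. None of the motifs overlapped the letters of another in the windows printed.

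DHT libraries held 14774175 ± 5938684 counts and vehicle libraries 13187943 ± 4570227 counts (SD, n = 6 each), with a range over the 12 libraries of 4345939 to 25678380. One count was worth 0.0389 CPM (counts scaled to a common library total) in the deepest library and 0.230 CPM in the shallowest. Both libraries numbered replicate 2 stood apart along principal component 1 (51.1% of the variance). They lay at 77.4 (DHT) and 83.8 (vehicle), and the other 10 libraries lay between -32.3 and 23.3. The library at 23.3 was vehicle replicate 5, which also stood apart along principal component 2 (15.7% of the variance). It lay there at -49.96, and all other libraries lay between -21.2 and 23.4. The androgen-responsive genes FKBP5, SEC14L2, AQP3 and ZBTB16 summed to 912 to 1190 CPM in DHT libraries and 89.2 to 125 CPM in vehicle libraries. The summed level of 8 luminal markers was 3850 to 7071 CPM in DHT libraries and 4872 to 9603 CPM in vehicle libraries. KRT19 was highest in replicate 2 of each group, at 3323 CPM (DHT) and 3230 CPM (vehicle). By edgeR's test FOXA1 (log2 fold change -0.75, adjusted p = 0.00463) and GATA3 (-0.59, adjusted p = 0.0253) fell with DHT. The other luminal markers did not pass. The 4 leukocyte markers reached 0.438 CPM in DHT libraries and 0.854 CPM in vehicle libraries, with CD3E at 0 in all. The 3 endothelial markers reached 0.641 CPM in DHT libraries and 1.47 CPM in vehicle libraries. The 5 basal markers, mostly TP63, summed to 1.92 to 2.87 CPM in DHT libraries and 9.19 to 14.6 CPM in vehicle libraries. The 5 fibroblast markers, mostly COL1A1, summed to 59.7 to 75.7 CPM in DHT libraries and 75.8 to 110 CPM in vehicle libraries, and the part of any of these differences in the sterol results was not tested.

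All 29 genes passed the filter on low counts. By edgeR's quasi-likelihood test at an adjusted p under 0.05 over 16355 genes, 1 gene rose, 1 fell and 27 did not pass. These 2 calls are 6.90% of the members, against 2.84% of all genes tested (464), with 1.96% raised and 0.88% lowered. At an unadjusted p under 0.05 the members numbered 4, against 12% of all genes. DESeq2 called 2 members raised and 1 lowered, against 4.09% of all genes it tested in either direction. Members had a median log2 fold change of -0.04 and all genes one of -0.05. Of the 27 that did not pass, 26 had a 95% interval inside a 2-fold change in either direction, and the exception was NR1H3. The interval of 17 lay inside a 1.5-fold change. MYLIP was the only member with every DHT library above every vehicle library, a pattern found in 2.28% of all genes. INSIG2 was the only member with every DHT library below, a pattern found in 0.991% of all genes.

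**Figure D1:**
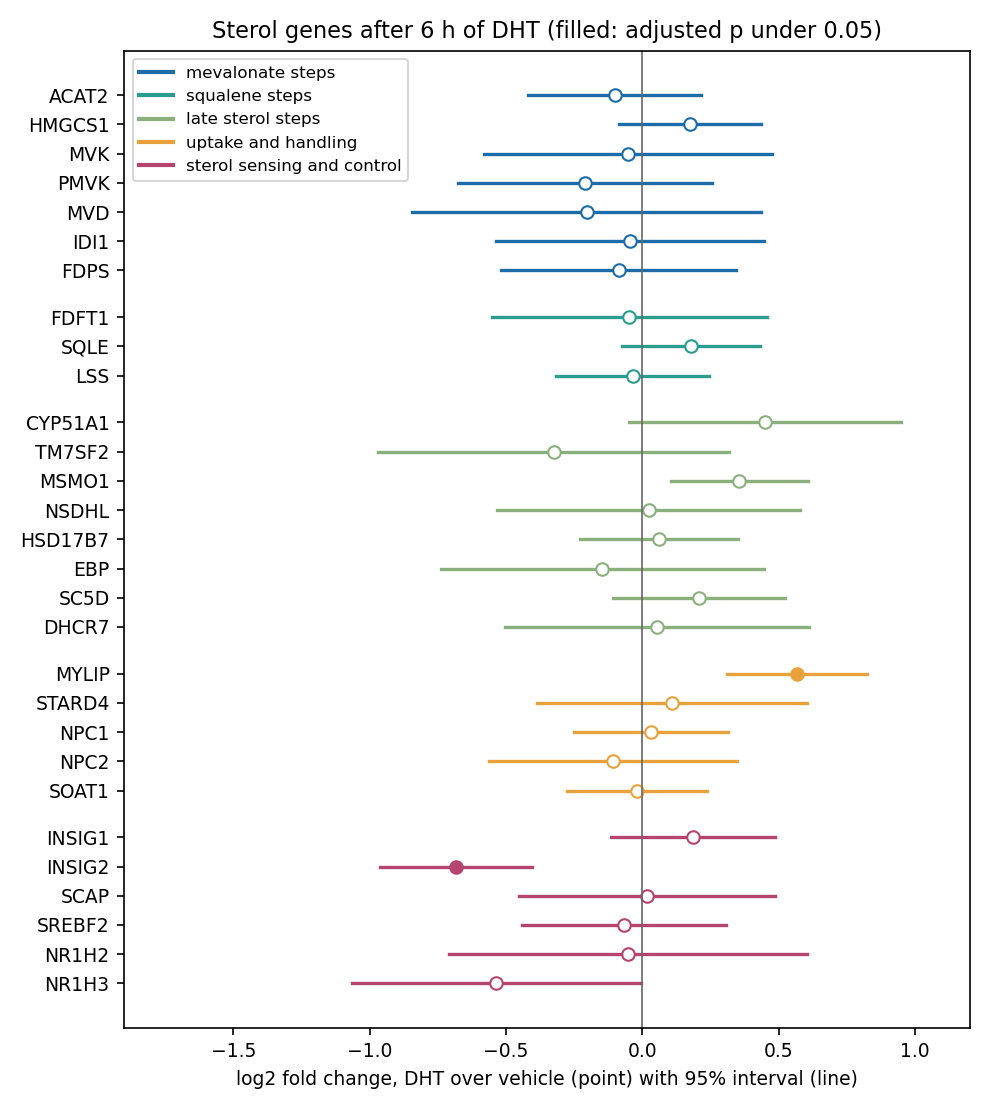
Log2 fold change, DHT over vehicle, of the 29 sterol genes by pathway step, with the 95% interval of edgeR's fit as a line, and filled points for an adjusted p under 0.05. Only INSIG2 at -0.68 and MYLIP at 0.57 are filled, and the other intervals reach from -1.06 (NR1H3) to 0.95 (CYP51A1).

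Of the 6 sensing and control genes, 1 fell with DHT and 5 did not pass. INSIG2 (ENSG00000125629, chromosome 2, 118088452 to 118110997, plus strand, GRCh38), one of the paired proteins that hold SCAP in the endoplasmic reticulum, had 84.4, 101 and 113 CPM as its lowest, median and highest values in DHT libraries. In vehicle libraries the lowest, median and highest were 114, 163 and 184 CPM. The groups did not overlap, though the vehicle library at 114 CPM, replicate 2, lay just above the highest DHT library. Its mean was 99.4 ± 11.6 CPM in DHT libraries and 160 ± 26.1 CPM in vehicle libraries (SD, n = 6 each), a fold of 0.623. The log2 fold change was -0.68 ± 0.13 (SE; 95% interval -0.96 to -0.40; edgeR adjusted p = 0.0103). Without both replicate 2 libraries it was -0.73 (edgeR adjusted p = 0.000728). With scaling by library totals alone it was -0.64 and no longer passed (edgeR adjusted p = 0.0847). In bulk RNA, fewer cells with the transcript and less transcript per cell cannot be told apart.

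INSIG1, the INSIG partner that is itself a target of SREBP, did not pass. It had 205 to 318 CPM (median 238) in DHT libraries and 191 to 257 CPM (median 213) in vehicle libraries, and the groups overlapped. Its log2 fold change was 0.18 ± 0.14 (SE; 95% interval -0.12 to 0.48; edgeR adjusted p = 0.748). Per kilobase of exon, the ratio of INSIG1 to INSIG2 was 2.02 to 3.93 (median 2.71) in DHT libraries and 1.12 to 2.44 (median 1.38) in vehicle libraries. The ratio is a description with no test, and its ranges overlapped through vehicle replicate 2. That library had the highest INSIG1 and the lowest INSIG2 value of its group. The highest ratio with DHT was also that of replicate 2. SCAP had a median of 105 CPM in DHT libraries and 95.8 CPM in vehicle libraries, with a log2 fold change of 0.02 (95% interval -0.45 to 0.48). SREBF2 had a median of 454 CPM in DHT libraries and 440 CPM in vehicle libraries, with a log2 fold change of -0.07 (95% interval -0.44 to 0.31).

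The liver X receptor genes are close relatives, with NR1H2 broadly expressed and NR1H3 known for higher levels in liver, fat and macrophages. NR1H3 had 13.1, 14.3 and 24.96 CPM as its lowest, median and highest values in DHT libraries, against 17.5, 18.8 and 44.2 CPM in vehicle libraries. The highest value of each group was its replicate 2 library, and the groups overlapped through it. The log2 fold change was -0.54 ± 0.25 (SE; 95% interval -1.06 to -0.01; edgeR adjusted p = 0.407). Without both replicate 2 libraries it was -0.42 and passed (edgeR adjusted p = 0.0269). NR1H3 shares 189 exonic bases with ACP2, a lysosomal phosphatase gene on the other strand that averaged 38.3 ± 5.51 CPM in DHT libraries and 62.0 ± 16.9 CPM in vehicle libraries (SD, n = 6 each). ACP2 fell by 0.70 on the log2 scale (edgeR adjusted p = 0.0364), and the part of shared reads in the NR1H3 values was not tested. NR1H2 had a median of 62.2 CPM in DHT libraries and 62.2 CPM in vehicle libraries, with a log2 fold change of -0.05 (95% interval -0.71 to 0.60).

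Of the 5 genes of uptake and handling, 1 rose with DHT and 4 did not pass. MYLIP (ENSG00000007944, chromosome 6, 16129086 to 16148248, plus strand, GRCh38) had 41.0, 43.5 and 48.5 CPM as its lowest, median and highest values in DHT libraries, and 22.1, 30.1 and 37.0 CPM in vehicle libraries. Every DHT library lay above every vehicle library. Its mean was 44.2 ± 3.08 CPM in DHT libraries and 29.9 ± 4.97 CPM in vehicle libraries (SD, n = 6 each), a 1.48-fold rise. The log2 fold change was 0.57 ± 0.12 (SE; 95% interval 0.31 to 0.82; edgeR adjusted p = 0.0197). Without both replicate 2 libraries it was 0.58 (edgeR adjusted p = 0.0166). The call was lost in 3 of the 12 fits that left out a library, with edgeR adjusted p = 0.0547 without DHT replicate 4, 0.0588 without DHT replicate 6 and 0.0583 without vehicle replicate 4. Scaling by library totals alone gave 0.61 (edgeR adjusted p = 0.0884).

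The other 4 handling genes did not pass, and their groups overlapped. NPC1 and NPC2 encode the proteins that pass lipoprotein cholesterol out of the lysosome. NPC1 had medians of 35.04 CPM in DHT libraries and 36.6 CPM in vehicle libraries, with a log2 fold change of 0.03 (95% interval -0.25 to 0.31). NPC2 had medians of 86.8 CPM in DHT libraries and 77.0 CPM in vehicle libraries, with a log2 fold change of -0.11 (95% interval -0.56 to 0.35). SOAT1, which esterifies cholesterol for storage, had a log2 fold change of -0.02 (95% interval -0.28 to 0.24), the narrowest interval of these 4. STARD4, a soluble carrier that moves sterol between membranes, was low, at 4.83 to 9.98 CPM in DHT libraries and 4.08 to 9.88 CPM in vehicle libraries, and its log2 fold change was 0.11 (95% interval -0.39 to 0.60).

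**Figure D2:**
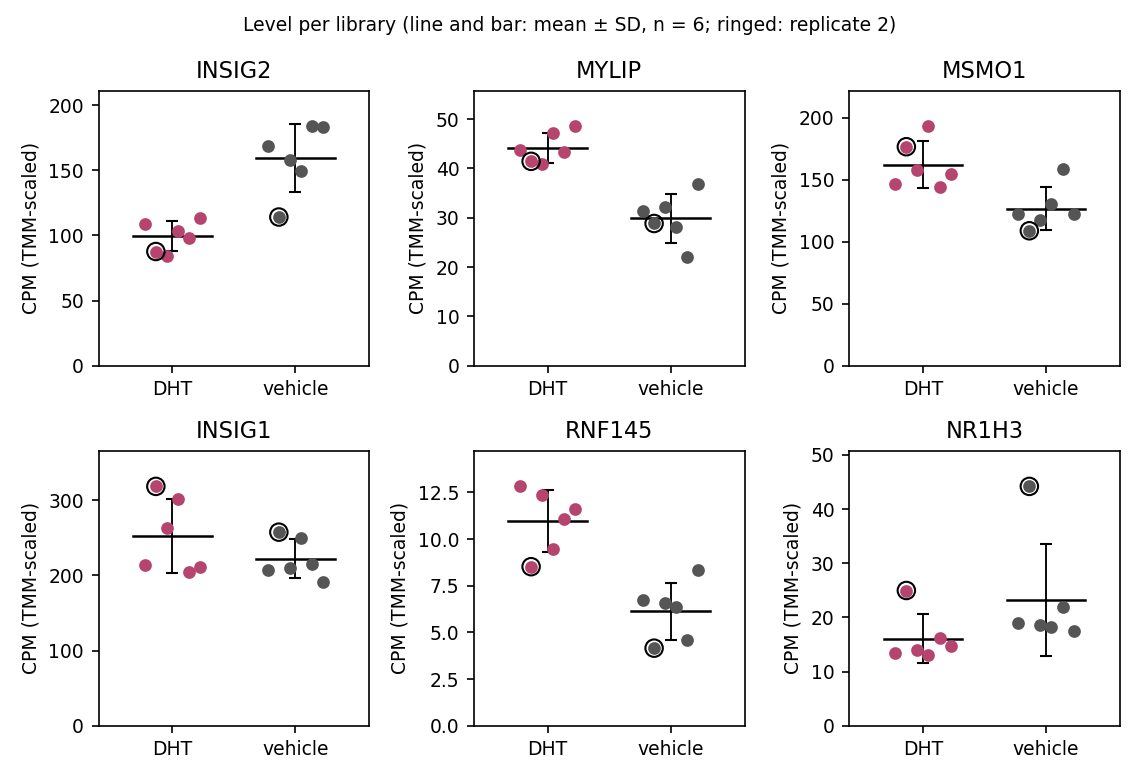
CPM (TMM-scaled) of 6 genes in each library, DHT left and vehicle right, with mean ± SD (n = 6) and replicate 2 ringed. The groups do not overlap for INSIG2, MYLIP and RNF145, and they overlap for MSMO1, INSIG1 and NR1H3.

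None of the 18 synthesis enzymes passed edgeR's test, with 1 at an unadjusted p under 0.05 and 1 called by DESeq2, both times MSMO1. Their log2 fold changes ran from -0.33 (TM7SF2) to 0.45 (CYP51A1) with a median of -0.04, 8 above 0 and 10 below. All 18 intervals lay inside a 2-fold change and 11 inside a 1.5-fold change. The summed level of the 18 was 2135 to 3178 CPM (median 2364) in DHT libraries and 2027 to 3281 CPM (median 2311) in vehicle libraries. Without the replicate 2 libraries the sum was 2135 to 2759 CPM in DHT libraries and 2027 to 2822 CPM in vehicle libraries, so the ranges overlapped with and without them.

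In the mevalonate steps, which build isoprene units from acetyl-CoA, 1 of 7 enzymes had a positive log2 fold change and 6 a negative one. HMGCS1, the synthase at the entry to the pathway, had 212 to 304 CPM (median 252) in DHT libraries and 188 to 253 CPM (median 241) in vehicle libraries, with a log2 fold change of 0.17 (95% interval -0.09 to 0.43). ACAT2, the cytosolic thiolase that feeds it, had 45.0 to 79.4 CPM in DHT libraries and 54.0 to 78.2 CPM in vehicle libraries, with a log2 fold change of -0.10 (95% interval -0.42 to 0.22). The kinases MVK and PMVK, which phosphorylate mevalonate in turn, had log2 fold changes of -0.05 and -0.21. Without vehicle replicate 5 the PMVK value was -0.03, and that of IDI1, given below, was 0.18. The decarboxylase MVD had -0.21 and the farnesyl diphosphate synthase FDPS -0.09. IDI1, the isomerase that makes the second isoprene unit, had 177 to 274 CPM in DHT libraries and 114 to 413 CPM in vehicle libraries, and its log2 fold change was -0.05 (95% interval -0.54 to 0.45).

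The squalene steps join farnesyl units and close the sterol rings. FDFT1, squalene synthase, had medians of 214 CPM in DHT libraries and 211 CPM in vehicle libraries, with a log2 fold change of -0.05 (95% interval -0.55 to 0.45). SQLE, the epoxidase that is a control point of the pathway, had medians of 233 CPM in DHT libraries and 209 CPM in vehicle libraries, with a log2 fold change of 0.18 (95% interval -0.07 to 0.43). LSS, the cyclase that makes lanosterol, had medians of 187 CPM in DHT libraries and 190 CPM in vehicle libraries, with a log2 fold change of -0.04 (95% interval -0.32 to 0.25).

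In the late sterol steps, which turn lanosterol into cholesterol, 6 of 8 enzymes had a positive log2 fold change and 2 a negative one. MSMO1, the oxidase that removes methyl groups from the sterol ring, came closest to a call and was singled out after its values were seen. It had 144, 157 and 193 CPM as its lowest, median and highest values in DHT libraries and 109, 122 and 159 CPM in vehicle libraries, so 1 vehicle library reached into the DHT range. Its log2 fold change was 0.36 ± 0.12 (SE; 95% interval 0.10 to 0.61; edgeR adjusted p = 0.164), and DESeq2 gave 0.37 (adjusted p = 0.0451). Without vehicle replicate 5, the library at 159 CPM, it was 0.43 and passed (edgeR adjusted p = 0.0353). That library also had the highest share of mitochondrial counts, 8.07%, and the part of this in the result was not tested.

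CYP51A1, the lanosterol demethylase, had 5.43 to 8.90 CPM in DHT libraries and 2.12 to 6.22 CPM in vehicle libraries, with a log2 fold change of 0.45 (95% interval -0.05 to 0.95), or 0.29 without vehicle replicate 5. It rested on 607 counts in DHT libraries and 388 in vehicle libraries, and 80.6% of its exonic bases are shared with an annotated gene on the same strand that was at 0 counts in every library, so its level is uncertain. The sterol reductase TM7SF2 had -0.33 (95% interval -0.97 to 0.32). This value moved when 1 replicate 2 library was left out, to -0.59 without DHT replicate 2 and -0.012 without vehicle replicate 2. Both were the highest of their groups, so leaving out 1 of them unbalances the comparison. The medians of the other libraries were 94.5 CPM with DHT and 122 CPM with vehicle. NSDHL and HSD17B7, which act with MSMO1 in the demethylation, had 0.02 and 0.06. The isomerase EBP had -0.15 and shares 36.4% of its exonic bases with another gene near 0 counts. The desaturase SC5D had 0.21 (95% interval -0.11 to 0.52), and DHCR7, the reductase of a last step to cholesterol, had 0.05 (95% interval -0.51 to 0.61).

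Levels between genes were compared as CPM per kilobase of all annotated exons. PMVK was highest, at 81.9 ± 19.8 in DHT libraries and 94.7 ± 34.1 in vehicle libraries (SD, n = 6 each). DHCR7 (69.1 in DHT libraries, 66.6 in vehicle libraries), INSIG1 (69.1 and 60.8) and SREBF2 (61.9 and 64.8) came next, and their SDs overlapped that of PMVK and of each other. At the other end, STARD4 had 1.37 in DHT libraries and 1.26 in vehicle libraries, and CYP51A1, whose level is uncertain through its shared exons, 1.93 and 1.41. HSD17B7 had 3.68 in DHT libraries, where NR1H3 lay below it, and 3.53 in vehicle libraries, where NR1H3 lay above it. MSMO1 had 56.9 CPM per kilobase in DHT libraries and 44.5 in vehicle libraries. INSIG2 had 25.2 ± 2.93 in DHT libraries and 40.4 ± 6.62 in vehicle libraries, below INSIG1 in both groups. MYLIP had 14.4 ± 1.00 in DHT libraries and 9.74 ± 1.62 in vehicle libraries, and NR1H2 stood above NR1H3, at 13.8 and 3.53 in DHT libraries and at 14.4 and 5.12 in vehicle libraries.

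**Figure D3:**
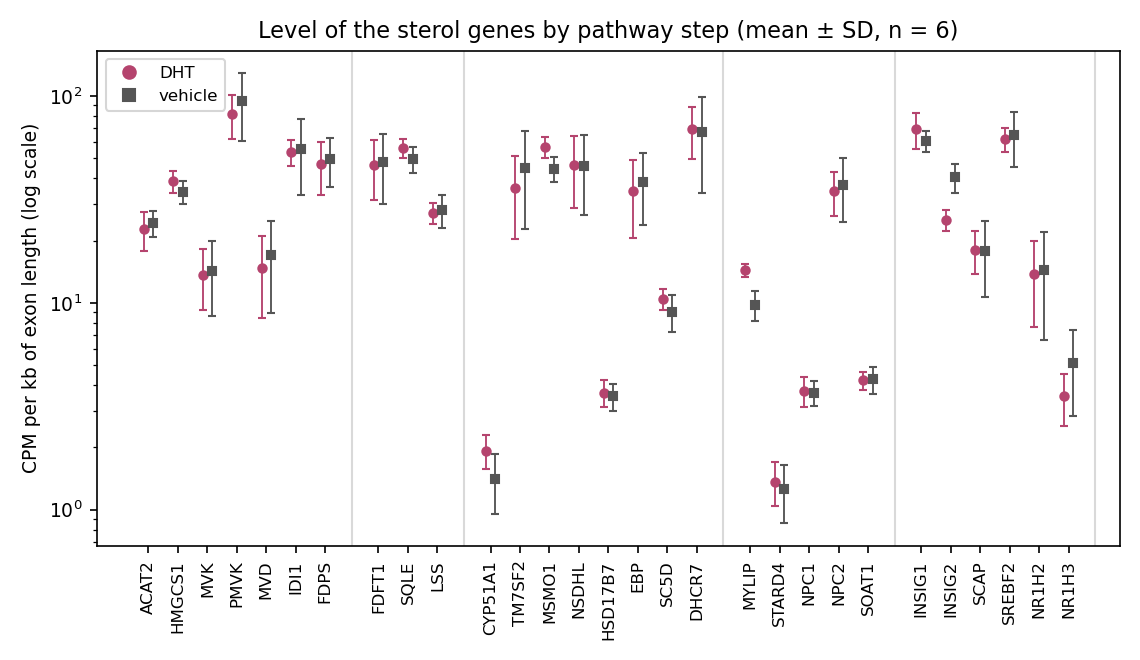
CPM per kilobase of exon of the 29 genes by pathway step, DHT left of vehicle, mean ± SD (n = 6) on a log axis. The levels run from 1.37 (STARD4) to 81.9 (PMVK) in DHT libraries and from 1.26 to 94.7 in vehicle libraries, and the SD bars of the groups overlap for most genes.

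The replicate 2 libraries stood apart in many of these genes. In 14 of the 29 members (48.3%) both replicate 2 libraries lay above all 10 other libraries, against 22.0% of all genes tested. Both lay below the others in 3 members (10.3%), which were SC5D, STARD4 and IDI1, against 20.3% of all genes. MVD had 124 CPM in DHT replicate 2 and 150 CPM in vehicle replicate 2, where the other 10 libraries had 43.3 to 94.8 CPM. DHCR7 had 442 CPM in DHT replicate 2 and 542 CPM in vehicle replicate 2, where the others had 181 to 295 CPM. IDI1 had 177 CPM in DHT replicate 2 and 114 CPM in vehicle replicate 2, where the others had 219 to 413 CPM. Enzymes of the same pathway thus lay on opposite sides in the same libraries.

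The side on which a gene lay went with base composition. The GC content of the transcripts, from the authors' deposited table, had a median of 57.9% for the 14 members above and 38.3% for the 3 below. Across the 29 genes, Pearson's r between GC content and the log2 ratio of replicate 2 to the median of the other libraries was 0.87 (Spearman's rho 0.88). Over the 14559 genes with a GC value r was 0.45 (rho 0.49). There a small constant was added to each CPM value before the ratio, and none for the members, so the coefficients are not measured alike. Both are descriptions across genes of the same libraries, which are not independent. MVD, at 64.1% GC, had ratios of 2.29 in DHT replicate 2 and 2.49 in vehicle replicate 2. SC5D, at 37.1% GC, had ratios of 0.745 in DHT replicate 2 and 0.583 in vehicle replicate 2. INSIG2, at 37.1% GC, had 0.847 in DHT replicate 2 and 0.677 in vehicle replicate 2, and MYLIP, at 46.3% GC, had 0.948 and 0.917. The replicate 2 libraries were the deepest of their groups, and their mitochondrial shares of 3.27% (DHT) and 4.89% (vehicle) lay inside the range of the others, 3.03% to 8.07%. The part of base composition and depth in these values was not tested.

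**Figure D4:**
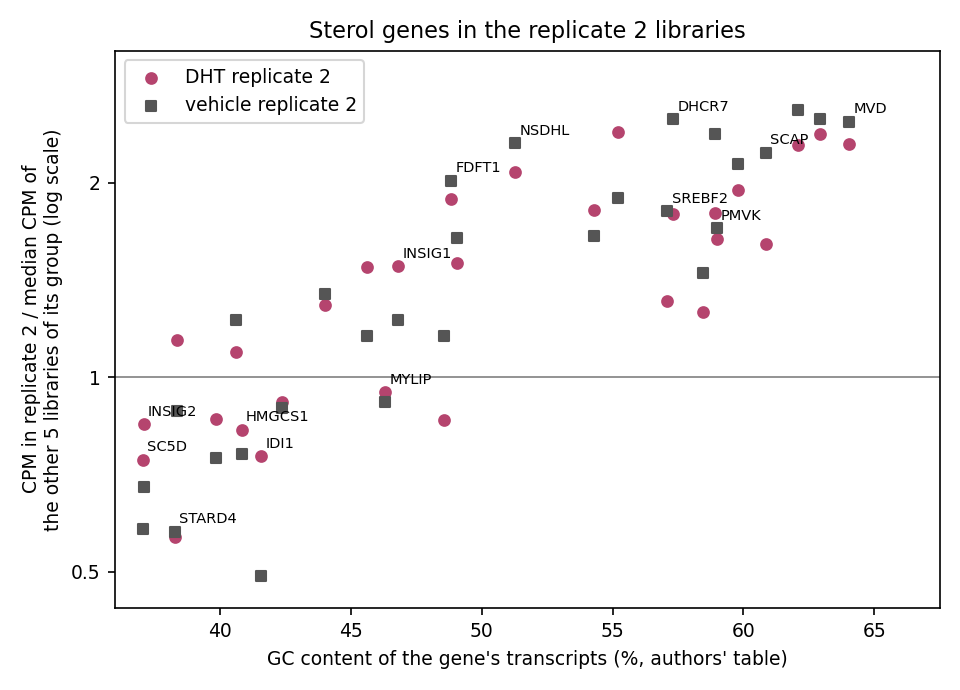
CPM of each of the 29 genes in DHT replicate 2 (circles) and vehicle replicate 2 (squares) over the median of the other 5 libraries of the group, on a log axis, against the GC percent of its transcripts. The ratios climb with GC content, from 0.745 and 0.583 for SC5D at 37.1% to 2.29 and 2.49 for MVD at 64.1%.

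Another 57 genes around the pathway were followed in 4 lists, and 51 of them were tested. By edgeR, 1 rose, 0 fell and 50 did not pass, against the 2.84% of all genes called. Unadjusted p-values under 0.05 went with 4 positive fold changes and 1 negative, against 12% of all genes in either direction. DESeq2 called 3 raised and 0 lowered, against 4.09% of all genes it tested. The gene that rose by edgeR was among the 13 of SREBP processing and sterol-driven degradation, and none passed among 15 of the isoprenoid branch, 16 of sterol transport and the 7 tested of 13 liver X receptor targets and oxysterol genes.

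RNF145 (ENSG00000145860, chromosome 5, 159157409 to 159210053, minus strand, GRCh38) encodes a sterol-responsive ubiquitin ligase of the endoplasmic reticulum that in mouse liver is a liver X receptor target acting on SCAP. It had 8.52, 11.3 and 12.8 CPM as its lowest, median and highest values in DHT libraries, and 4.15, 6.46 and 8.33 CPM in vehicle libraries. The groups did not overlap, though the highest vehicle library at 8.33 CPM lay just below the lowest DHT library at 8.52 CPM. Every DHT library above every vehicle library was a pattern found in 2.28% of all genes. The log2 fold change was 0.86 ± 0.18 (SE; edgeR adjusted p = 0.0186), and the call was lost without DHT replicate 1 (edgeR adjusted p = 0.0552), without DHT replicate 3 (0.0553) and with scaling by library totals alone (0.0726).

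The smallest p in each of the other lists belonged to genes that did not pass. In the isoprenoid branch this was PDSS1, which makes the side chain of coenzyme Q, with 16.4 ± 2.55 CPM in DHT libraries and 10.9 ± 2.45 CPM in vehicle libraries (SD, n = 6 each) and a log2 fold change of 0.59 (edgeR adjusted p = 0.0960). DESeq2 gave PDSS1 0.60 (adjusted p = 0.0222), and without both replicate 2 libraries it passed in edgeR (0.54, adjusted p = 0.0333). In sterol transport it was the lipoprotein receptor gene VLDLR, with 9.61 ± 2.42 CPM in DHT libraries and 6.69 ± 1.86 CPM in vehicle libraries (SD, n = 6 each) and a log2 fold change of 0.53 (edgeR adjusted p = 0.306). Among liver X receptor targets and oxysterol genes it was RXRA, the receptors' dimer partner, with a log2 fold change of -0.34 (edgeR adjusted p = 0.322). ABCG1, a sterol exporter and liver X receptor target, had 71.0 ± 18.7 CPM in DHT libraries and 91.7 ± 33.0 CPM in vehicle libraries (SD, n = 6 each) and a log2 fold change of -0.37 (edgeR adjusted p = 0.583). Without both replicate 2 libraries ABCG1 had -0.30 and passed (edgeR adjusted p = 0.0401). PAQR3, known for anchoring SCAP at the Golgi, had 13.1 ± 1.17 CPM in DHT libraries and 8.94 ± 2.28 CPM in vehicle libraries (SD, n = 6 each) and a log2 fold change of 0.55 (edgeR adjusted p = 0.122; DESeq2 adjusted p = 0.0386).

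The authors' deposited table gave INSIG2 a log2 fold change of -0.69 with an adjusted p of 0.00057 and MYLIP 0.51 with an adjusted p of 0.0516. In the authors' deposited table RNF145 had 0.80 (adjusted p = 0.00284) and PDSS1 0.64 (adjusted p = 0.0180). In the authors' deposited table MSMO1 had 0.31 (adjusted p = 0.599) and NR1H3 -0.41 (adjusted p = 0.278). At a threshold of 0.05 the authors' deposited table and edgeR's fit placed INSIG2, RNF145, MSMO1 and NR1H3 on the same side and MYLIP and PDSS1 on opposite sides.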

How the data were processed

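RNA was measured by single-end 40 bp RNA-seq in 12 libraries, with total RNA named in the labels' protocols and poly-A RNA in the design text, so the RNA class is unsettled. The submitters' processing notes name STAR, featureCounts and GRCh38, with versions, options and strand not given in the sources used here. In each library 39.6% to 46.7% of the nonzero values were not whole (tolerance 0.005), so the authors' deposited values were taken as estimated counts and rounded, although raw counts had been assumed when the test was chosen. Reads shared between gene copies or overlapping genes are therefore uncertain. Besides the members named above, HMGCS1 (37.7%), NR1H2 (22.1%), FDPS (18.6%) and ACAT2 (17.2%) share exonic bases with opposite-strand genes, among others. The gene shared with HMGCS1 was at 0 CPM. TCP1, shared with ACAT2, averaged 292 CPM in DHT libraries and 269 CPM in vehicle libraries. The part of shared reads in these members was not tested. The record of 1 gene, broken over 3 lines, was left out. The authors' deposited table of 14559 genes holds GC percent, p-values, log2 fold changes and log2 CPM, from a model that no header names.

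The test was edgeR's (4.0.16, in R 4.3.3) quasi-likelihood F-test on TMM-scaled counts after filterByExpr, group as the only term, with p-values adjusted by Benjamini-Hochberg over 16355 genes. CPM are counts over TMM-scaled totals, and log2 fold changes are DHT over vehicle. Alternatives were DESeq2 1.42.0, other scalings and filters, the replicate number as a block, and libraries left out. Totals limit precision for low genes, and values of 1 count cover counting error only. The members and lists were chosen with earlier results of these data known. All members were named by step, as were companion genes that passed, the smallest p of each other list and up to 3 more by the block fit. Promoters were shown for members that passed or held an exact match to the sterol regulatory element TCACNCCAC. Some items are not reported here and are left out of the companion lists and their counts.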

Additional observations from a re-analysis of the deposited data

Results flagged for a closer look

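Within each group of 6, the highest and lowest library of the 29 members and 6 companion genes were compared with the rest by Dixon's gap test. It picked out 19 of 70 groups (27.1%), where its nominal rate for independent groups is about 5%. These groups are not independent, since the same libraries recur in each gene, and the share over all genes was not computed. Over all genes tested, both replicate 2 libraries lay above all others in 22.0% and below all others in 20.3%. Every one of the 19 was a replicate 2 library, 9 with DHT and 10 with vehicle, and all were high. The part of base composition, given with the replicate 2 values above, was not tested.

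Among the synthesis enzymes, PMVK had 120 CPM in DHT replicate 2, above 63.7 to 80.7 CPM in the other DHT libraries. FDFT1 had 390 CPM in DHT replicate 2 and 425 CPM in vehicle replicate 2, above 186 to 248 CPM in the other DHT libraries and 182 to 264 CPM in the other vehicle libraries. TM7SF2 had 225 CPM in DHT replicate 2 and 306 CPM in vehicle replicate 2. NSDHL had 164 CPM in DHT replicate 2 and 163 CPM in vehicle replicate 2. DHCR7 had 442 CPM in DHT replicate 2 and 542 CPM in vehicle replicate 2.

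Among the control genes, SCAP had 165 CPM in DHT replicate 2 and 202 CPM in vehicle replicate 2, above 95.2 to 110 CPM in the other DHT libraries and 82.2 to 107 CPM in the other vehicle libraries. SREBF2 had 778 CPM in vehicle replicate 2, above 383 to 490 CPM in the other vehicle libraries. NR1H2 had 140.4 CPM in DHT replicate 2 and 160.3 CPM in vehicle replicate 2. NR1H3 had 24.96 CPM in DHT replicate 2 and 44.2 CPM in vehicle replicate 2. Of the companion genes, RXRA had 313 CPM in vehicle replicate 2, and ABCG1 had 109 CPM in DHT replicate 2 and 158 CPM in vehicle replicate 2.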

How the results depend on the processing

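INSIG2 passed in 18 of 19 alternatives (log2 fold change -0.77 to -0.64; edgeR or DESeq2 adjusted p = 4.43e-05 to 0.0847), MYLIP in 15 (0.49 to 0.63) and RNF145 in 16 (0.77 to 0.95), without a change of sign. Over the alternatives the adjusted p by edgeR or DESeq2 ran from 0.000327 to 0.0884 for MYLIP, 0.000162 to 0.0726 for RNF145, 0.0353 to 0.408 for MSMO1, 0.0116 to 0.644 for NR1H3, 0.00914 to 0.248 for PDSS1 and 0.0257 to 0.813 for ABCG1. The cause of the lost calls was not tested. Over all genes the counts raised and lowered were 514 and 264 by DESeq2, 764 and 522 with the replicate block, and 608 and 312 without both replicate 2 libraries. Lowered genes numbered 93 with library totals alone and 90 with no filter. Leaving out each library in turn gave 189 to 434 raised and 86 to 199 lowered.

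Members raised were 2 by DESeq2, 0 with library totals alone and 0 to 2 with a library left out. Members lowered were 0 with library totals alone, 2 with the block and 2 without both replicate 2 libraries, and 1 in every fit that left out a library. Companions raised were 3 by DESeq2, 0 with library totals, 4 with the block, 2 without both replicate 2 libraries and 0 to 1 with a library left out. Companions lowered were 1 with no filter, 1 with the block and 1 without both replicate 2 libraries.

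Library totals alone moved the median log2 fold change of all genes by 0.058, and small values changed sign: MVK 0.0243, IDI1 0.0161, FDFT1 0.0251, LSS 0.0276, SOAT1 0.0275, SREBF2 0.0049 and NR1H2 0.0246. So did IDI1 with the block (0.0419), and LSS (0.0177), SREBF2 (0.0377) and NR1H2 (0.0193) without both replicate 2 libraries. With a library left out, signs changed within the ranges of MVK (-0.25 to 0.18), MVD (-0.46 to 0.0737), IDI1 (-0.19 to 0.18), FDPS (-0.24 to 0.0623), FDFT1 (-0.24 to 0.17), LSS (-0.0842 to 0.0613), NSDHL (-0.22 to 0.27), HSD17B7 (-0.0048 to 0.13), EBP (-0.38 to 0.0055) and DHCR7 (-0.12 to 0.36). The same held for STARD4 (-0.0177 to 0.23), NPC1 (-0.0281 to 0.0809), NPC2 (-0.25 to 0.0640), SOAT1 (-0.0686 to 0.0303), SCAP (-0.13 to 0.27), SREBF2 (-0.15 to 0.11) and NR1H2 (-0.34 to 0.30). For MVK, MVD, FDPS and FDFT1 the low end came without DHT replicate 2 and the high end without vehicle replicate 2. Without both, these genes had -0.0061, -0.17, -0.089 and -0.017. The ends of IDI1 came without vehicle replicate 2 and without vehicle replicate 5.

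The replicate numbers were not taken as pairs, since the labels do not say that a number marks a shared passage and the same-numbered deviations were correlated in replicates 1 (0.51), 2 (0.87), 3 (0.44), 4 (0.26) and 6 (0.46) but not in replicate 5 (-0.24). DHT replicates 1, 2 and 4 correlated best with their own vehicle number, and 3, 5 and 6 with another. If a number does mark a shared passage, the main fit leaves that shared spread in its error. With the replicate block, NR1H3 passed (-0.50, edgeR adjusted p = 0.0116), as did the companions PDSS1, PAQR3, VLDLR and ABCG1. Depth limits the low genes most, STARD4 and CYP51A1 among the members.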

Other observations

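SOAT2, which esterifies cholesterol in liver and gut, was too low for the filter on low counts and was not tested in the main fit. It had 5 counts over the 6 DHT libraries and 34 counts over the 6 vehicle libraries. This was 0 to 0.199 CPM in DHT libraries against 0.214 to 0.876 CPM in vehicle libraries. By library totals, 1 count was worth 0.230 CPM in vehicle replicate 6, the shallowest library, which is more than the gap between these ranges. The gap between the ranges is thus narrower than 1 count there. The part of counting error and depth in the difference between 5 and 34 counts was not tested. Among genes tested, 0.991% had every DHT library below every vehicle library. The gene was singled out after its values were seen.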
